A study of Mus musculus with 5 samples.

Results

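The interferon-stimulated genes and the genes through which cells sense interferon and foreign nucleic acid were followed in sorted pigment cells of mouse back skin. The set was given as a list of 46 gene symbols, and all 46 were found in the count table among 24100 genes. All 46 also passed the filter on low counts, so no member was left out of the tests. RNA had been sequenced with poly-A selection and without strand information from 2 groups of male mice of a mixed CD1 and C57Bl6J background. The first group held 2 libraries of quiescent melanocyte stem cells (qMcSC), from which new hair pigment cells are made, from 4 pooled males each at postnatal days 60 and 62, in the resting phase (telogen) of the second hair cycle. The second group held 3 libraries of melanocytes from 3, 2 and 4 pooled males at postnatal day 10, in the full growth phase (anagen). All mice carried a Dct-eGFP reporter, green in cells in which the pigment-lineage gene Dct is active, and only the melanocyte mice also carried a red Lef1 reporter. Both sorts took green cells with medium to low integrin α6 and without CD31, CD45, CD140a, Sca1 and CD34, and the melanocyte sort also asked for the Lef1 reporter and c-Kit. The groups differed at once in age, in the stage of the hair cycle, in the Lef1 reporter and in gate, which cannot be told apart, and fewer cells of a type and less RNA per cell cannot be told apart in these bulk samples either.

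Type I interferons bind a receptor of the subunits IFNAR1 and IFNAR2, and interferon gamma binds IFNGR1 and IFNGR2. Kinases of the JAK family then phosphorylate STAT proteins, and for type I interferon a complex that contains STAT2 and IRF9 enters the nucleus and binds a DNA element called the interferon-stimulated response element (ISRE). The genes it switches on include sensors of foreign RNA and DNA, proteins that block steps of viral infection, the ubiquitin-like protein ISG15, and the immunoproteasome, a form of the proteasome with exchanged catalytic subunits that cuts peptides for MHC class I. Tissue stem cells are known to express a part of these genes without infection, and in pigment cells interferon is known for raising antigen presentation and for a role in vitiligo, in which melanocytes are lost.

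Total counts ranged from 17512381 to 124530834 per library. Melanocyte replicate 1 stood apart, with the summed level of 8 melanocyte genes at 2996 CPM (TMM-normalized CPM, used throughout) against 17600 and 19160 CPM in the other melanocytes and 19060 and 20300 CPM in qMcSC.

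Most members were higher in qMcSC. Of the 46 members, 31 were called higher in qMcSC and 3 higher in melanocytes, and 12 were not called. A call here means an adjusted p under 0.05 in edgeR's quasi-likelihood test over all 16953 genes tested. Over all genes tested, 55.4% were called, 26.2% higher in qMcSC and 29.1% higher in melanocytes. The median log2 fold change (melanocyte minus qMcSC, so that negative values mean higher in qMcSC) was -2.003 over the members and 0.03 over all genes tested. In 37 members both qMcSC libraries stood above all 3 melanocyte libraries, and in 3 members the order was the opposite. Over all genes tested the groups did not overlap in 74.5%, with qMcSC above in 36.4% and melanocytes above in 38.1%. When counts were scaled by library size alone, the median of all genes moved from 0.03 to 0.26 and the share of calls higher in qMcSC from 47.4% to 36.3%, and 30 and 3 members were called.

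**Figure D1:**
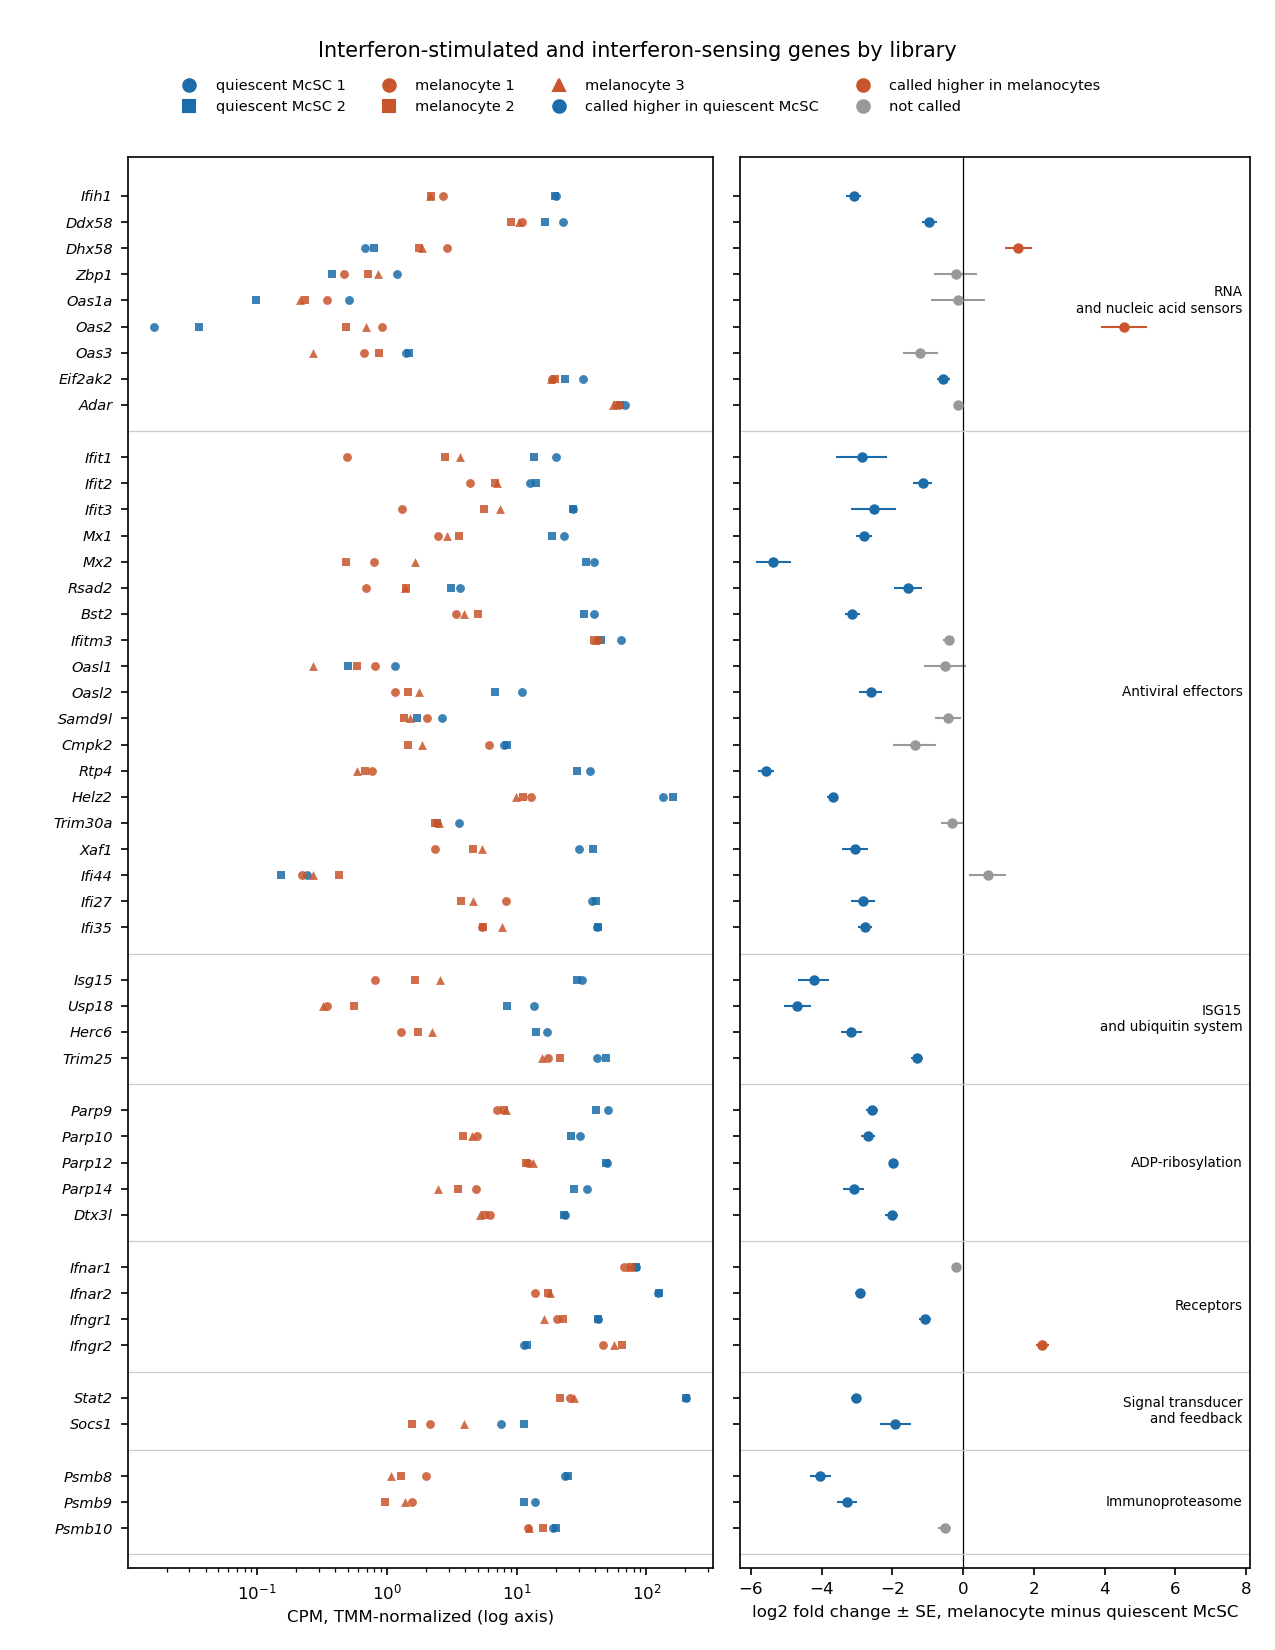
Left, expression of each of the 46 genes in each of the 5 libraries, in CPM on a log axis. Right, the log2 fold change of melanocytes against qMcSC with its standard error, coloured by the call. Most genes lie left of 0, from -5.58 for Rtp4, while Oas2 (4.54), Ifngr2 (2.24) and Dhx58 (1.56) were called on the right.

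The ISRE was looked for in the promoters of the members, taken from RefSeq (build GRCm38.p6) as 250 bases before to 50 bases after each start site. Its core, GAAA followed by any 2 bases and GAAA again, was searched on both strands, and overlapping matches were counted separately. Promoters were listed for 35 of the 46 members. Of these 35 genes, 14 (40.0%) held at least 1 match, against 3.94% of the 18038 genes of the count table with a listed promoter and 3.44% of all 32851 listed promoters. The longer form, in which CT follows the second GAAA, was present in 7 of the 35 members and 0.36% of the table's genes. The core of the GAS element, TTCNNNGAA, known from genes that respond to interferon gamma, was present in 28.6% of the members and 9.16% of the table's genes. Over the 39 promoters of these 35 genes, the 23 matches of the ISRE core lay between 222 bases before and 32 bases after the start site, and 15 of them within the 150 bases before it. By role, a match was present in 5 of 6 sensors, 6 of 15 antiviral effectors, 1 of 3 genes of the ISG15 system and both Stat2 and Socs1. None of the 4 receptor genes, the 3 immunoproteasome genes or the 2 genes of ADP-ribosylation with a listed promoter held one. The median log2 fold change was -1.74 in the 14 genes with the ISRE core and -1.37 in the 21 without, but -0.96 with and -1.74 without the longer form, and -0.85 with and -1.92 without the GAS core. No promoter was listed for Rtp4, Mx2, Usp18, Parp14, Ifi27, Mx1, Parp10, Parp9, Oas2, Dhx58 or Zbp1. The shares and medians therefore leave out Rtp4 (-5.58) and Mx2 (-5.36), the widest gaps, and Oas2 (4.54) and Dhx58 (1.56), called higher in melanocytes.

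Printed below are the promoters of the 8 members with an ISRE match and the smallest p in the comparison. They read 5′ to 3′ on the strand of the gene. Choice by p favours called genes, and all 8 were higher in qMcSC. Oas1a, Oas3, Ifitm3 and Trim30a also held a match and were not called. A match is a description of the letters and no evidence of binding. Capitals mark every match of the core on either strand (the other strand reads TTTC, any 2 bases, TTTC), and runs of capitals longer than 10 letters are overlapping matches.
Stat2 (chr10:128270248-128270547, plus strand): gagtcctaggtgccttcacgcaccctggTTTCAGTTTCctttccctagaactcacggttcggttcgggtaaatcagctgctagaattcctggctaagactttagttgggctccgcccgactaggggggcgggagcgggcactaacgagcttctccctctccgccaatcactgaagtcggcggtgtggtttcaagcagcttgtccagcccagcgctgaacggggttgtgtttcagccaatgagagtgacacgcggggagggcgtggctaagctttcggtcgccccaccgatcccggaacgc
Ifih1 (chr2:62646206-62646505, minus strand): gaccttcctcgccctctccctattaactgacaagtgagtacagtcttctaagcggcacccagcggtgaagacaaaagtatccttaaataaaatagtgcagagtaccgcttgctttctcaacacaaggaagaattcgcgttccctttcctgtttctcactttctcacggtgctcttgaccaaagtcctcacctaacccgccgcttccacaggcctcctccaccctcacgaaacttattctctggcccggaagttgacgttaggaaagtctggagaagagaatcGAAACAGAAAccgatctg
Bst2 (chr8:71537423-71537722, minus strand): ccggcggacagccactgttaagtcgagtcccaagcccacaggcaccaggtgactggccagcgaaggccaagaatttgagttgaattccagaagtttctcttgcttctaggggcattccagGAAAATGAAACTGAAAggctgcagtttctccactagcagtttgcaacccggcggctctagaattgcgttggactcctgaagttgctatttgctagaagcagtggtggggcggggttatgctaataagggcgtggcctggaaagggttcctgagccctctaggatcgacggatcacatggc
Isg15 (chr4:156200769-156201068, minus strand): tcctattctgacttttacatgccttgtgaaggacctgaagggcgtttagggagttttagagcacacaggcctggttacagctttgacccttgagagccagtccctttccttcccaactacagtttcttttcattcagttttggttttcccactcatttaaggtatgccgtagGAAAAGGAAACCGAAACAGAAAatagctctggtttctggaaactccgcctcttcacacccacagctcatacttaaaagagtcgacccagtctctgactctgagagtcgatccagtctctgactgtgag
Ddx58 (chr4:40239776-40240075, minus strand): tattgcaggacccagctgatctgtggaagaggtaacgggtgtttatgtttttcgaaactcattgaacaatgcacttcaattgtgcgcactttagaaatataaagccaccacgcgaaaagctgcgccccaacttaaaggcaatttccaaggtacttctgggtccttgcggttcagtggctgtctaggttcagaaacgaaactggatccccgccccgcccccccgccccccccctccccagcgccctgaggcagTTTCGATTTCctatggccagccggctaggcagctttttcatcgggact
Socs1 (chr16:10785487-10785786, minus strand): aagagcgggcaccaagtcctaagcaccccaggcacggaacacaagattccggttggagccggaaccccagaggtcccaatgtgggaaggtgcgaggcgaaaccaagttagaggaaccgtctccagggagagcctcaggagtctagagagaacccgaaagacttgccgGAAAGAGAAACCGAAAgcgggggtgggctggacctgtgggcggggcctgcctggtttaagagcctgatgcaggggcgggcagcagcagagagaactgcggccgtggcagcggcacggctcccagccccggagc
Ifit3 (chr19:34583279-34583578, plus strand): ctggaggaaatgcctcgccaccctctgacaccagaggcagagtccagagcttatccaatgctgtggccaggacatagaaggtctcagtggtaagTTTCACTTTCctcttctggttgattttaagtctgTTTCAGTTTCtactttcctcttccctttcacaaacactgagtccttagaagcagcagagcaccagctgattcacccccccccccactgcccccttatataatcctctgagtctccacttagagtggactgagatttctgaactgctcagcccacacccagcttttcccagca
Ifit1 (chr19:34640639-34640938, plus strand): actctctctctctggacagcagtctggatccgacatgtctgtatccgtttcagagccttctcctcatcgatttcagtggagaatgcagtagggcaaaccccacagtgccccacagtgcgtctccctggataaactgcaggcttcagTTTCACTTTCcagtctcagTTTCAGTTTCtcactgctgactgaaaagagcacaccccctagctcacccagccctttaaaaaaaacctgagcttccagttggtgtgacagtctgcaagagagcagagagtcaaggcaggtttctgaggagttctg
In Isg15 3 overlapping matches began 78, 72 and 66 bases before the start site. Bst2 and Socs1 each held 2 overlapping matches on the strand of the gene, at 130 and 124 bases and at 83 and 77 bases before the start. Ifit3 and Ifit1 each held 2 separate matches on the other strand, at 156 and 122 bases and at 104 and 85 bases. The single match of Stat2 was the farthest, at 222 bases before the start, and those of Ifih1 and Ddx58 lay after it, at 32 and 2 bases.

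All 4 genes of the ISG15 system were higher in qMcSC. Isg15, the ubiquitin-like protein that is attached to other proteins after interferon, stood at 32.1 and 29.2 CPM in qMcSC and at 0.814, 1.66 and 2.57 CPM in melanocytes. Its libraries did not overlap, and the difference was 18.8-fold (log2 fold change -4.23 ± 0.44 SE, edgeR adjusted p = 0.000608; -3.91 without melanocyte replicate 1). Usp18, the protease that removes ISG15 and also dampens signalling at IFNAR2, stood at 13.6 and 8.36 CPM against 0.345, 0.557 and 0.321 CPM, a 25.8-fold difference (adjusted p = 0.000281). Herc6, the main ISG15 ligase of the mouse, was 8.98-fold higher, at 15.6 ± 2.17 CPM (SD, n = 2) against 1.75 ± 0.482 CPM (n = 3). Trim25, a ubiquitin ligase that assists RIG-I, differed least among these genes, at 45.4 ± 4.78 against 18.2 ± 2.89 CPM (2.49-fold, adjusted p = 0.00128). The groups did not overlap in any of these 4 genes. Over all genes tested, qMcSC stood above without overlap in 36.4%.

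Of 19 antiviral effectors, 13 were higher in qMcSC, 0 in melanocytes and 6 were not called. The shares of all genes tested that were called higher were 26.2% in qMcSC and 29.1% in melanocytes. The widest gaps belonged to Rtp4 and Mx2. Rtp4, a zinc-finger protein induced by type I interferon, stood at 36.8 and 29.0 CPM in qMcSC and at 0.765, 0.675 and 0.588 CPM in melanocytes (47.9-fold, log2 fold change -5.58 ± 0.23, adjusted p = 4.49e-05). Its RefSeq span overlaps that of Masp1, which went the other way, with 67.6 CPM in melanocyte replicate 1 and 3.39 to 4.72 CPM in qMcSC; without strand, reads of the shared stretch cannot be told apart. Mx2, of a family of dynamin-like GTPases some of which trap viral components, stood at 39.8 and 34.2 CPM against 0.789, 0.484 and 1.66 CPM (41.2-fold, -5.36 ± 0.49, adjusted p = 0.000377). Its relative and neighbour Mx1 differed by 6.99-fold, at 21.0 ± 3.03 against 2.99 ± 0.550 CPM. Many laboratory strains carry Mx genes in a defective form. Helz2, a helicase known as a nuclear receptor coactivator, stood at 134 and 159 CPM against 12.9, 11.3 and 9.89 CPM (12.9-fold, adjusted p = 4.57e-05). In all 4 of these genes the groups were separated by a wide gap.

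A further set of effectors differed between 6-fold and 9-fold. Bst2 (tetherin), which holds budding virus at the cell surface, stood at 36.2 ± 4.28 against 4.12 ± 0.830 CPM (8.76-fold, adjusted p = 0.000164). Xaf1, which antagonizes the caspase inhibitor XIAP, was 8.33-fold higher, Ifi27, a small hydrophobic membrane protein, 7.13-fold (log2 fold change -2.83, and -3.25 without melanocyte replicate 1), Ifi35, a leucine zipper protein, 6.89-fold, and Oasl2, an oligoadenylate synthetase-like protein, 6.12-fold. All 5 of these calls held under every alternative setting. Ifi27 spans Ifi27l2a in RefSeq, whose own level was under 1 CPM in every library.

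The IFIT genes, whose proteins bind abnormal RNA ends and hold back translation, lie side by side on chromosome 19, and Ifit1 and Ifit3 had the widest ranges among the melanocytes of all members (7.48-fold and 5.69-fold, against 1.61-fold for Ifit2). Ifit1 stood at 20.1 and 13.5 CPM in qMcSC and at 0.493, 2.82 and 3.69 CPM in melanocytes. Ifit3 stood at 27.4 and 27.1 CPM against 1.31, 5.57 and 7.43 CPM, and Ifit2 at 12.6 and 14.1 CPM against 4.34, 6.86 and 7.004 CPM. In each of them melanocyte replicate 1 was the lowest library, and the groups did not overlap. The fold differences were 7.32 for Ifit1, 5.78 for Ifit3 and 2.20 for Ifit2 (adjusted p = 0.0166, 0.0157 and 0.0127), and each call was lost without either qMcSC library (0.052 to 0.0879). Melanocyte replicate 1 was also the library with the least pigment-lineage RNA, with Dct at 1073 CPM against 5777 and 6505 CPM in the others; without it the 3 genes had log2 fold changes of -2.38, -2.08 and -0.94 in place of -2.87, -2.53 and -1.14, and stayed called. Ifit3 has a near-identical copy, Ifit3b, at 16.9 and 15.4 CPM against 0.765, 2.55 and 3.90 CPM, so the split of reads between the copies is uncertain.

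Rsad2 (viperin), a radical enzyme that makes a chain-terminating nucleotide, and Cmpk2, the nucleotide kinase gene next to it on chromosome 12, were at lower levels. Rsad2 stood at 3.69 and 3.12 CPM against 0.691, 1.39 and 1.39 CPM (2.95-fold, adjusted p = 0.0177), and its call was lost without either qMcSC library (0.067 and 0.0985). Cmpk2 stood at 7.92 and 8.42 CPM against 6.09, 1.45 and 1.87 CPM and was not called (adjusted p = 0.105). Here melanocyte replicate 1 was the high library of its group, and without it Cmpk2 was called (log2 fold change -2.32, adjusted p = 0.000478).

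The remaining effectors showed little difference or little RNA. Ifitm3, which blocks fusion of virus in endosomes, stood at 63.4 and 44.6 CPM against 42.5, 39.3 and 39.9 CPM, with the lower qMcSC library close to the melanocytes (1.33-fold, adjusted p = 0.0787), and was called without qMcSC replicate 2 (0.025). Samd9l, a translation inhibitor, stood at 2.19 ± 0.671 against 1.63 ± 0.348 CPM, and Trim30a, a TRIM protein with close relatives in the mouse, at 3.04 ± 0.834 against 2.43 ± 0.0837 CPM. Ifi44 and Oasl1, which limits IRF7 translation, had mean levels under 1 CPM in both groups. None of these 5 genes was called (adjusted p from 0.0787 to 0.492), and Samd9l, Trim30a, Ifi44 and Oasl1 had libraries of the groups overlapping.

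Of 9 sensors, 3 were higher in qMcSC, 2 in melanocytes and 4 were not called, shares near the 26.2% and 29.1% of all genes tested. Their median log2 fold change was -0.21. Ifih1 (MDA5), which detects long double-stranded RNA, stood at 20.2 and 19.7 CPM in qMcSC and at 2.69, 2.17 and 2.14 CPM in melanocytes (8.55-fold, log2 fold change -3.10 ± 0.21, adjusted p = 0.000139). Ddx58 (RIG-I), which detects RNA with uncapped ends, stood at 22.9 and 16.7 CPM against 11.1, 8.97 and 10.4 CPM (1.95-fold, adjusted p = 0.00962), a call lost without qMcSC replicate 1 (0.0804). The third RNA helicase of this family, Dhx58 (LGP2), which has no signalling domain and modulates the other two, was higher in melanocytes, at 0.674 and 0.795 CPM against 2.89, 1.77 and 1.87 CPM. Its log2 fold change was 1.56 ± 0.39 (adjusted p = 0.0163), and the call was lost without either qMcSC library (0.0996 and 0.0767). The groups did not overlap in any of the 3 helicase genes, as in 74.5% of all genes tested.

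The 3 oligoadenylate synthetase genes among the members, whose proteins respond to double-stranded RNA by activating RNase L, were scarce. Oas2 had 1 and 4 counts in qMcSC and stood at 0.913, 0.484 and 0.695 CPM in melanocytes (log2 fold change 4.54 ± 0.65, adjusted p = 0.00195). Oas3 stood at 1.40 and 1.49 CPM against 0.666, 0.865 and 0.267 CPM and was not called (adjusted p = 0.0831), and Oas1a stood under 1 CPM in every library with overlapping groups. The 3 genes lie together on chromosome 5, and Oas1a has close relatives there, so its reads may be split. Zbp1, a sensor of Z-form nucleic acid that can trigger cell death, read 1.20 and 0.375 CPM against 0.469, 0.719 and 0.855 CPM, with the qMcSC libraries on either side of the melanocytes.

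Of the sensors present at higher counts, Eif2ak2 and Adar differed little. Eif2ak2 (PKR), the kinase that halts translation on double-stranded RNA, stood at 32.2 and 23.6 CPM against 18.7, 19.6 and 18.6 CPM (1.47-fold, adjusted p = 0.0356). Its call was lost without qMcSC replicate 1 (0.247), without melanocyte replicates 2 or 3 (0.0668 and 0.0872), when scaled by library size alone (0.164) and after thinning to the shallowest library (0.114). A transcribed pseudogene, Gm6548, overlaps it and read 8.29 to 13.0 CPM. Adar, which edits adenosine in double-stranded RNA and so keeps cellular RNA from being sensed, read 65.2 ± 4.42 against 58.5 ± 2.92 CPM (log2 fold change -0.16, adjusted p = 0.247), and its sign turned when scaled by library size alone (0.07).

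All 5 genes of interferon-linked ADP-ribosylation were higher in qMcSC, and the groups did not overlap in any of them. Such an order, with qMcSC above, was present in 36.4% of all genes tested. Parp9 and Dtx3l, whose proteins form a pair that modifies ubiquitin, stood at 45.9 ± 6.87 against 7.73 ± 0.643 CPM (5.94-fold) and at 23.3 ± 0.205 against 5.71 ± 0.502 CPM (4.06-fold). These neighbours on chromosome 16 overlap by 558 bases, within which reads cannot be assigned without strand. Parp14, which lies beside them, read 34.9 and 27.9 CPM against 4.88, 3.53 and 2.46 CPM (8.58-fold, adjusted p = 0.000486). Parp10 and Parp12, which attach single ADP-ribose units, were 6.45-fold and 3.95-fold higher (adjusted p = 0.00018 and 0.000115). All 5 calls held under every alternative setting.

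The immunoproteasome genes Psmb8 and Psmb9 were higher in qMcSC while the genes they displace were not. Psmb8 read 23.7 and 24.7 CPM in qMcSC and 2.00, 1.28 and 1.07 CPM in melanocytes (16.5-fold, log2 fold change -4.04 ± 0.30, adjusted p = 0.000193). Psmb9, its neighbour within the MHC on chromosome 17, read 13.8 and 11.5 CPM against 1.55, 0.968 and 1.39 CPM (9.73-fold, adjusted p = 0.000356). In both genes every qMcSC library stood far above every melanocyte library. Psmb10, on chromosome 8, read 19.1 and 20.2 CPM against 12.3, 15.9 and 12.6 CPM and was not called (1.44-fold, adjusted p = 0.0502). It passed with DESeq2 (adjusted p = 0.0178), with a filter of 5 CPM in 2 libraries (0.0397) and without melanocyte replicate 2 (0.0271).

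Of the constitutive counterparts, Psmb5 and Psmb7 were higher in melanocytes. Psmb5, which PSMB8 replaces, stood at 55.3 ± 1.30 CPM in qMcSC and 122 ± 7.54 CPM in melanocytes (log2 fold change 1.14 ± 0.11, adjusted p = 0.000397). Psmb7, which PSMB10 replaces, had a log2 fold change of 0.60 ± 0.14 (adjusted p = 0.0121), a call lost without either qMcSC library (0.0509 and 0.0966). Psmb6, which PSMB9 replaces, stood at 136 ± 2.97 and 139 ± 4.97 CPM and was not called (adjusted p = 0.806). Divided by merged exon length, the level of Psmb8 was 0.116 and 0.117 of that of Psmb5 in qMcSC and 0.00467, 0.00265 and 0.00228 of it in melanocytes. For Psmb9 over Psmb6 the same ratio was 0.0509 and 0.0437 against 0.00596, 0.00346 and 0.00505, and for Psmb10 over Psmb7 it was 0.303 and 0.355 against 0.150, 0.155 and 0.145. The size of these ratios depends on merged exon length, which counts every annotated transcript and was 3381 bases for Psmb8 and 899 for Psmb5. In CPM without this division, Psmb8 read 23.7 and 24.7 in qMcSC against 54.4 and 56.2 for Psmb5. On both scales constitutive genes stood above their exchanged forms in all 5 libraries. All 3 ratios were higher in both qMcSC libraries than in any melanocyte library. Psme1 and Psme2, which encode the interferon-inducible proteasome activator, were higher in qMcSC (log2 fold changes -0.89 and -0.71), and Pomp, an assembly factor of both forms, was higher in melanocytes (1.14).

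**Figure D2:**
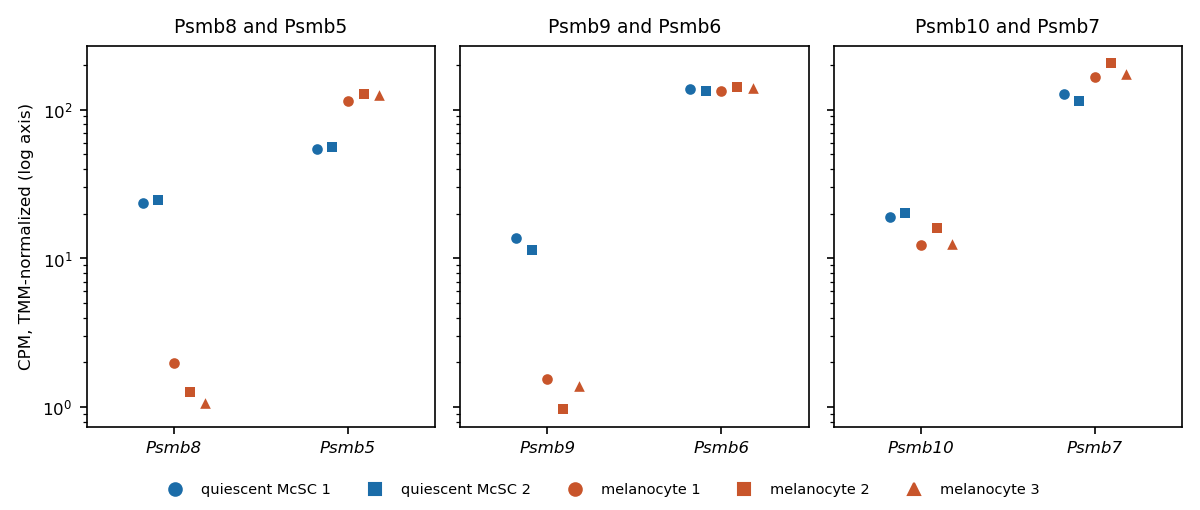
Each panel shows an immunoproteasome gene and the constitutive gene whose subunit it replaces, in CPM per library on a log axis. Psmb8 and Psmb9 in melanocytes lie between 0.968 and 2.00 CPM, far below qMcSC, while Psmb5 and Psmb7 are higher in melanocytes and Psmb6 is level.

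The receptor genes differed by subunit. Ifnar2, a chain of the type I receptor, was higher in qMcSC, at 123 and 125 CPM against 13.9, 17.4 and 18.2 CPM (7.54-fold, log2 fold change -2.92 ± 0.14, adjusted p = 6.4e-05). Ifnar1, its partner, read 83.1 and 83.0 CPM against 66.7, 76.4 and 74.2 CPM and was not called (-0.20 ± 0.10, adjusted p = 0.155), with a sign that turned when scaled by library size alone (0.02). The chains of the interferon gamma receptor went in opposite directions. Ifngr1, the ligand-binding chain, read 42.3 and 42.3 CPM against 20.6, 22.7 and 16.2 CPM and was higher in qMcSC (2.13-fold, adjusted p = 0.00255). Ifngr2, the chain that brings JAK2, read 11.4 and 12.1 CPM against 45.97, 64.7 and 56.0 CPM and was higher in melanocytes (4.74-fold, log2 fold change 2.24 ± 0.18, adjusted p = 0.000265). The calls of Ifnar2, Ifngr1 and Ifngr2 held under every alternative setting.

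Ifnar2, Il10rb, Ifnar1 and Ifngr2 follow each other within 191225 bases of chromosome 16 (91372783 to 91564007, GRCm38). Along this stretch the log2 fold changes were -2.92, -0.48, -0.20 and 2.24, so that the first and last gene of the cluster were called in opposite directions and the 2 between them were not called. Il10rb, a chain shared by the receptors of interleukin 10 and of interferon lambda, read 53.1 and 54.3 CPM against 22.0, 48.0 and 45.6 CPM. The other lambda receptor gene, Ifnlr1, was higher in melanocytes, at 5.91 ± 0.168 against 14.7 ± 0.767 CPM (1.31 ± 0.18, adjusted p = 0.0017).

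**Figure D3:**
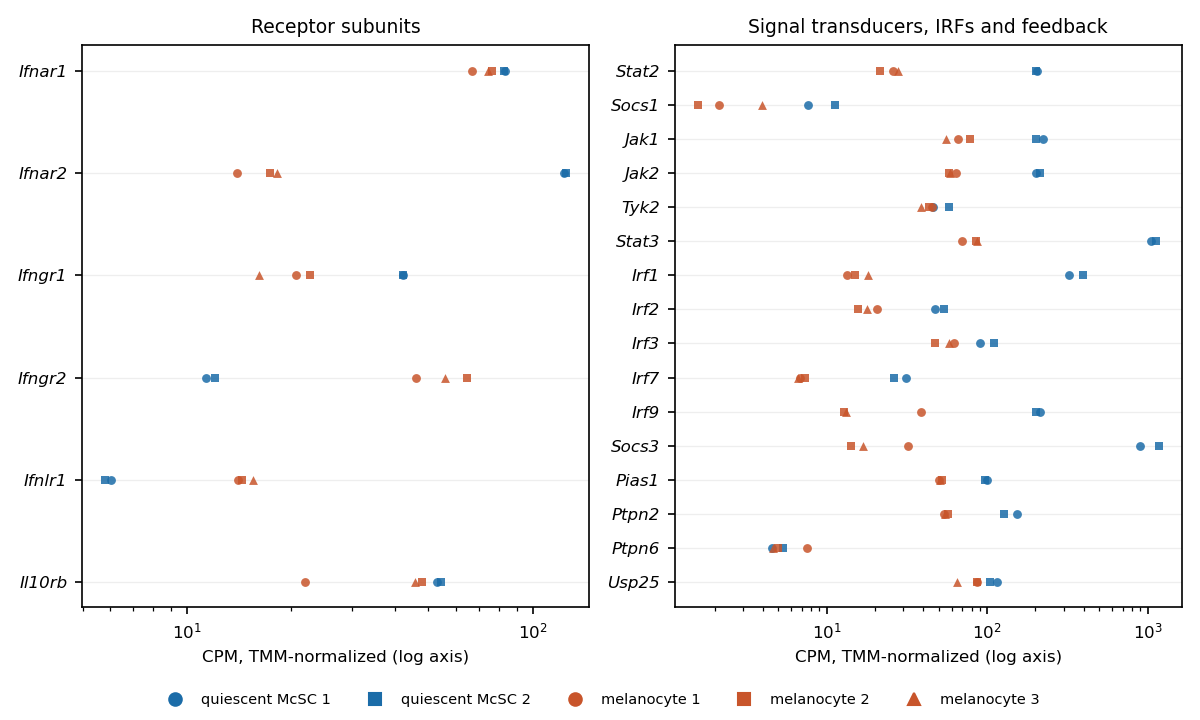
CPM per library on a log axis for interferon receptor chains (left) and for signal transducers, interferon regulatory factors and feedback genes (right). Ifngr2 and Ifnlr1 are the receptor genes with melanocytes on the high side, and on the right qMcSC exceed melanocytes in nearly every gene.

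Behind the receptors, most of the signalling chain was higher in qMcSC. Stat2, which is specific to the interferon response, read 203 CPM on average in qMcSC (204 and 203) and 25.8, 21.5 and 27.8 CPM in melanocytes (8.14-fold, log2 fold change -3.02 ± 0.13, adjusted p = 5.51e-05). Of 9 genes of the JAK, STAT and IRF core outside the members, 8 were called higher in qMcSC, against 26.2% of all genes tested. Tyk2 was not called (51.7 ± 8.38 against 42.5 ± 3.42 CPM). Irf9, a DNA-binding partner of STAT2, stood at 214 and 202 CPM against 38.9, 12.9 and 13.2 CPM (-3.26 ± 0.51, adjusted p = 0.0026), with melanocyte replicate 1 the high library; the log2 fold change was -3.99 without it. The kinase gene Jak1 differed by -1.68 ± 0.16 and Jak2 by -1.79 ± 0.10. Irf1, an early target of interferon gamma, had the widest gap, at 360 ± 51.6 against 15.6 ± 2.41 CPM (-4.54 ± 0.18, adjusted p = 4.49e-05). Stat3, which mainly serves cytokines of the interleukin 6 family, differed by -3.76 ± 0.16, Irf7, the amplifier of type I interferon genes, by -2.06 ± 0.17, Irf2 by -1.49 ± 0.16 and Irf3 by -0.85 ± 0.16.

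Most feedback genes were higher in qMcSC as well. Socs1, the JAK inhibitor induced by interferon, read 7.64 and 11.3 CPM against 2.15, 1.57 and 3.96 CPM (3.78-fold, adjusted p = 0.0113), a call lost without qMcSC replicate 2 (0.0844). Its relative Socs3, induced mainly through STAT3, read 899 and 1176 CPM against 32.2, 14.2 and 16.7 CPM (-5.62 ± 0.41, adjusted p = 0.00018; -6.07 without melanocyte replicate 1). Of the 5 genes of the feedback list, 4 were higher in qMcSC and 0 in melanocytes, against 26.2% and 29.1% of all genes tested. Next to Socs3 these were Ptpn2 (-1.35 ± 0.11), Pias1 (-0.95 ± 0.09) and Usp25 (-0.46 ± 0.15). Ptpn6 was not called (0.21 ± 0.30, adjusted p = 0.583). The call of Usp25 (adjusted p = 0.0442) was lost when scaled by library size alone (0.243) and without any 1 library other than melanocyte replicate 1 (0.0585 to 0.203).

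Of 12 sensors and adaptors outside the members, 4 were higher in qMcSC and 3 in melanocytes, near the shares of all genes tested (26.2% and 29.1%). Tmem173 (STING), the adaptor of cytosolic DNA sensing, stood at 78.1 ± 3.65 against 7.18 ± 1.67 CPM (-3.45 ± 0.22, adjusted p = 0.000113), and Myd88, the adaptor of most Toll-like receptors, at 180 ± 5.86 against 22.2 ± 1.36 CPM (-3.01 ± 0.10). Tlr3, which detects double-stranded RNA in endosomes, was also higher in qMcSC (-1.02 ± 0.23), a call lost without qMcSC replicate 1 (adjusted p = 0.0853). Mavs, the adaptor of RIG-I and MDA5, was the fourth (-0.47 ± 0.13), a call lost without either qMcSC library (0.0512 and 0.15), without melanocyte replicate 3 (0.0573) and when scaled by library size alone (0.147). Tlr7 and Ifi204, which are typical of myeloid cells, had 1 and 3 counts in qMcSC against 346 and 199 in melanocytes. From summed counts these are ratios of 473 (95% interval 84.4 to 18750) and 90.7 (30.6 to 444), intervals that cover counting error only. Tlr9 had no count in qMcSC and 26 in melanocytes, at least 11.9-fold higher against a floor of 3 counts over the group, a call lost without qMcSC replicate 2 (0.0579). In the same melanocyte libraries Csf1r, a receptor of macrophages, read 21.0, 12.5 and 18.2 CPM against 0.321 and 0.545 CPM in qMcSC, and its part in these 3 genes was not tested.

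Interferon ligand genes gave almost no reads. Of 11 ligand genes, 9 had no count in any library, Ifnb1, Ifng and 4 genes of the alpha family among them, which allows a level of up to 0.160 CPM in the shallowest library and up to 0.0268 CPM in the deepest. Ifnk, the interferon of keratinocytes, had 4 counts in qMcSC and 3 in melanocytes. Ifnz, a type I interferon of mice also called limitin, had 22 and 41 counts in qMcSC and 0, 0 and 6 in melanocytes. It missed the threshold (adjusted p = 0.195) but was called without melanocyte replicate 3 (0.00785), which held all 6 melanocyte counts.

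Remarks above on scarce, lower or higher levels of members refer to CPM or counts, without regard to gene length. For a ranking, levels were divided by merged exon length from GENCODE M21. This length counts every annotated transcript and so lowers the value of genes with long alternative transcripts. On this scale Ifitm3 was the highest member in both groups, at 79.7 CPM per kilobase in qMcSC and 59.9 in melanocytes. Isg15 (40.5), Bst2 (40.1), Ifnar2 (37.3) and Stat2 (34.3 CPM per kilobase) followed in qMcSC, and the small gaps between Isg15 and Bst2 lie within the spread of their 2 libraries. In melanocytes the next were Ifngr2 (14.8), Ifnar1 (12.2), Psmb10 (7.98) and Adar (7.20 CPM per kilobase), and Isg15 (2.22) took place 16. Oas2, Ifi44, Oas1a, Oas3 and Zbp1 were the 5 lowest members in qMcSC.

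Among themselves, the 2 qMcSC libraries were close in the summed level of the members, but most members were lower in replicate 2. The median ratio of replicate 2 to replicate 1 was 0.909 over the members and 1.01 over all genes tested. Of the 46 members, 15 were higher in replicate 2, against 51.8% of all genes tested. Single ratios ran from 0.191 for Oas1a to 2.23 for Oas2, both scarce, with Usp18 at 0.617 and Socs1 at 1.49. The summed level of the members was 1506 and 1444 CPM in qMcSC and 443, 473 and 461 CPM in melanocytes. The 3 melanocyte libraries were thus close to each other in sum, although replicate 1 held far less pigment-lineage RNA than the others. Single genes such as Ifit1, Isg15, Cmpk2 and Irf9 departed there in either direction. In melanocytes the largest parts of the sum came from Ifnar1, Adar, Ifngr2 and Ifitm3 (means of 72.4, 58.5, 55.6 and 40.6 CPM). None of these was called higher in qMcSC, so the sum says little about the members at lower levels.

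Levels of markers of other cells were set beside these results. For the counts of calls below, 26.2% of all genes tested were called higher in qMcSC and 29.1% higher in melanocytes. The 15 immune markers summed to 13.9 and 15.8 CPM in qMcSC, mostly from Cd68, and to 69.0, 36.2 and 50.6 CPM in melanocytes. Of them 8 were called higher in melanocytes and 2, Cd68 and Cd207, in qMcSC, with Ptprc (CD45) at 0.128 and 0.214 CPM and Cd3e at 0 and 0.0714 CPM in qMcSC. Of 11 keratinocyte markers, 6 were higher in qMcSC, such as Krt10 at 657 and 1261 CPM against 70.5, 14.3 and 37.1 CPM, and 4 in melanocytes, such as Krt5, and their sum was 3183 and 4395 against 5018, 4351 and 3638 CPM. All 10 immediate early and heat shock genes, which respond to the preparation of cells, were higher in qMcSC and summed to 23320 and 37270 CPM against 2137, 2278 and 1949 CPM. The part of these keratinocyte and immediate early genes in the interferon results was not tested. The same holds for the immune markers above and for the fibroblast, hair shaft and endothelial markers that follow. All 7 fibroblast and all 7 hair shaft markers were higher in melanocytes, where they summed to 1877 to 5240 and 2331 to 3718 CPM, against 4.07 to 39.8 CPM in qMcSC, and 5 of 6 endothelial markers were also higher there (18.2 to 40.8 against 9.88 to 12.2 CPM).

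**Figure D4:**
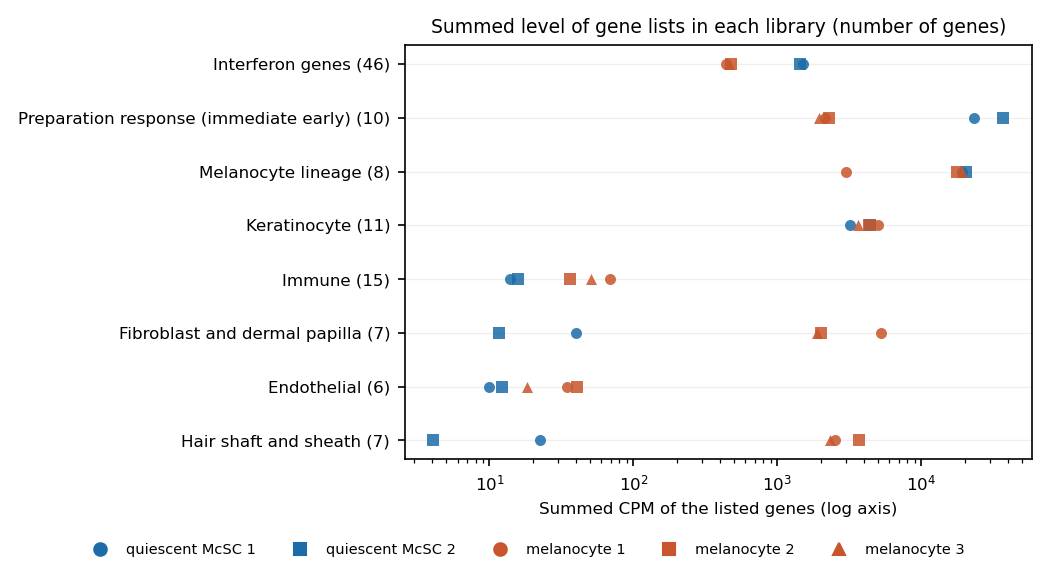
Summed CPM of the 46 interferon genes and of lists of other genes in each library, on a log axis, with the number of genes in brackets. The interferon genes sum to 1444 to 1506 CPM in qMcSC and 443 to 473 CPM in melanocytes, and the immune, fibroblast, endothelial and hair shaft lists lie on the opposite side.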

How the data were processed

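The authors deposited 1 table of raw counts per gene for the 5 libraries, in whole numbers that sum to a different total in each. Per the submitters' processing notes, STAR 2.5.2a, Salmon 0.8.2 and the build mm10 were used, with no role stated; which program counted reads, and on which annotation, is not given in the sources used here. Entrez identifiers were matched to RefSeq (GRCm38.p6, the same build), which named 24045 of 24100 genes. Genes were filtered with filterByExpr, scaled by TMM and tested with the two-sided quasi-likelihood F-test of edgeR 4.0.16 (R 4.3.3), all 5 libraries in 1 fit without covariates, with Benjamini-Hochberg adjustment over 16953 genes and a threshold of 0.05. The procedure was tested on simulated data. CPM values are TMM-normalized, errors are SD over 2 and 3 libraries, and each SE is the log2 fold change divided by the square root of its F statistic. The labels call the libraries biological replicates of pooled males; no pair of replicates agreed within sampling noise (chi-square per degree of freedom at least 43.7 over genes with 20 counts or more). The members and lists were chosen with earlier results of these data known. Named were all members, the core (1 gene of which is not reported here) and constitutive proteasome genes, and up to 4 genes with the smallest p or, for markers, the 2 of highest level per other list; Tlr3, Tlr9, Mavs, Ifit3b, Masp1, Gm6548, Ifi27l2a, Oas1b, Ifitm2 and further marker genes were chosen after their values were seen. Alternatives were RLE size factors, library size only, no filter, a filter of 5 CPM in 2 libraries, DESeq2 1.42.0, a replicate block, thinning to the shallowest library and leaving out each library. In the deepest and shallowest library 3 counts equal 0.0268 and 0.160 CPM on this scale.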

Additional observations from a re-analysis of the deposited data

How the results depend on the processing

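Of the 31 members called higher in qMcSC, 24 were called under every one of 12 alternatives that tested them, as were 2 of the 3 called higher in melanocytes (Oas2, where tested, and Ifngr2). Leaving out each library gave 25 to 32 members higher in qMcSC and 2 to 3 higher in melanocytes, a median log2 fold change of the members from -2.19 to -2.005, 16 to 19 and 5 to 7 pathway genes, and 2955 to 4857 and 3310 to 5148 of all genes. The lone library left in qMcSC is then assumed to vary like the melanocytes. With the stricter filter, which tested 36 members, 1 member and 4 pathway genes were higher in melanocytes and the median was -2.72. The median was -1.78 with library size only, -2.22 after thinning and -2.19 with the replicate block. With the longer ISRE motif 20% of the members with a listed promoter held a match. Same-numbered libraries did not deviate together (correlations 0.04 and -0.06). The deviations of the 2 qMcSC libraries mirror each other (correlation -1), so a batch shared by same-numbered libraries could not be assessed in this way. With the replicate block 30 members were higher in qMcSC and 2 in melanocytes, and 43.7% of all genes were called in place of 55.4%. The block ended the calls of Dhx58 (adjusted p = 0.0538), Eif2ak2 (0.13), Psmb7 (0.0643), Mavs (0.112) and Usp25 (0.167) and gave one for Ifnz (0.0221). Signs that turned belonged to genes not called. When scaled by library size alone these were Oas1a (0.068), Adar (0.065) and Ifnar1 (0.023), and with the replicate block Oas1a (0.29). Leaving out 1 library gave -0.836 to 0.84 for Zbp1, -0.936 to 1.424 for Oas1a, -1.014 to 0.19 for Oasl1, -0.033 to 0.336 for Ptpn6 and -0.015 to 0.064 for Psmb6. Causes were not tested. Depth limits the genes under 1 CPM.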

Other observations

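Oas1b, a relative of Oas1a that is not a member and was chosen after its values were seen, read 23.9 and 22.8 CPM in qMcSC and 1.28, 0.748 and 1.23 CPM in melanocytes. Oas1b is the oligoadenylate synthetase gene known for its part in resistance of mice to flaviviruses. Its groups did not overlap, whereas Oas1a stayed under 1 CPM in every library and Oas2 was higher in melanocytes. Ifitm2, a near relative of Ifitm3, read 52.3 and 47.4 CPM in qMcSC and 84.8, 82.1 and 72.4 CPM in melanocytes, the opposite order to Ifitm3.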
